A study of Mus musculus with 15 samples.

Results

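Secondary palates of wild-type mice were compared between embryonic day 16.5 (E16.5) and embryonic day 15.5 (E15.5), a step that follows fusion of the palatal shelves. The members were chosen by the stage in their labels and comprised 6 of the 15 libraries of the study, 3 per stage, read across all genes of the count table. Each library was bulk RNA sequencing of pooled palates from 3 embryos. All 6 were wild type with no treatment named, and the labels used here name no strain. They do not say whether pools shared a litter, so p-values measure the spread between pools. That spread was estimated from all 15 libraries of the study, not only these 6.

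The secondary palate forms from paired shelves that rise above the tongue, meet and fuse into the roof of the mouth. After fusion its front part ossifies, muscle of the soft palate matures at the back, the oral face keeps a stratified epithelium and the nasal face carries ciliated and secretory cells. Bone laid down by osteoblasts is resorbed by osteoclasts, multinucleated cells of the macrophage lineage. Multiciliated cells first multiply their centrioles in a brief programme and then build the axonemes of motile cilia.

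Levels are counts scaled to library totals (CPM) after adjustment by the trimmed mean of M values, and 3 CPM values given for a stage are replicates 1, 2 and 3 in that order. Totals were 58245101 to 63611000 counts at E15.5 and 37109472 to 52258321 at E16.5, so that 3 counts, taken as the detection floor, correspond to 0.0434 to 0.083 CPM. Of 22151 genes tested with edgeR's quasi-likelihood test, 228 rose (1.03%) and 84 fell (0.379%) at an adjusted p under 0.05. The median log2 fold change was 2.08 for the rises and -1.07 for the falls, against -0.001 over all tested genes, and 197 rises and 49 falls were at least 2-fold. At an unadjusted p under 0.05, 12.2% of tested genes were higher and 9.64% lower. With no threshold on p, 15.7% of tested genes were higher and 15.5% lower in every E16.5 library than in every E15.5 library.

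E16.5 replicate 1 stood apart from the other libraries. The thyroid hormone precursor Tg was at 4056 CPM in it, against 3.4 and 4.55 CPM in the other E16.5 libraries and 2.29 to 3.63 CPM at E15.5. The growth hormone gene Gh was at 1203 CPM, against 19 and 5.75 CPM, and the parathyroid hormone gene Pth at 116 CPM, against 0.111 and 0.0245 CPM. Pituitary markers summed to 1523 CPM in that library and to 31.9 and 13.5 CPM in the other E16.5 libraries. They summed to 65 to 98.8 CPM at E15.5, so they were not confined to that library. E16.5 replicate 1 had the highest E16.5 level for 180 of the 228 rises and the lowest for 59 of the 84 falls.

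Without that library 1 gene, Smtnl1, rose and 0 fell at the adjusted threshold in edgeR's test, with 1495 higher and 1335 lower at an unadjusted p under 0.05. Each of the 228 rises and 84 falls kept its direction and an unadjusted p under 0.05 in that fit, with a median of 1.82 for the rises. For 11 of the rises the log2 fold change was smaller by over 1 without it. Without E15.5 replicate 2, 0 genes passed in either direction, with 1874 higher and 1412 lower at an unadjusted p under 0.05. DESeq2 on all libraries called 1363 higher and 731 lower.

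**Figure D1:**
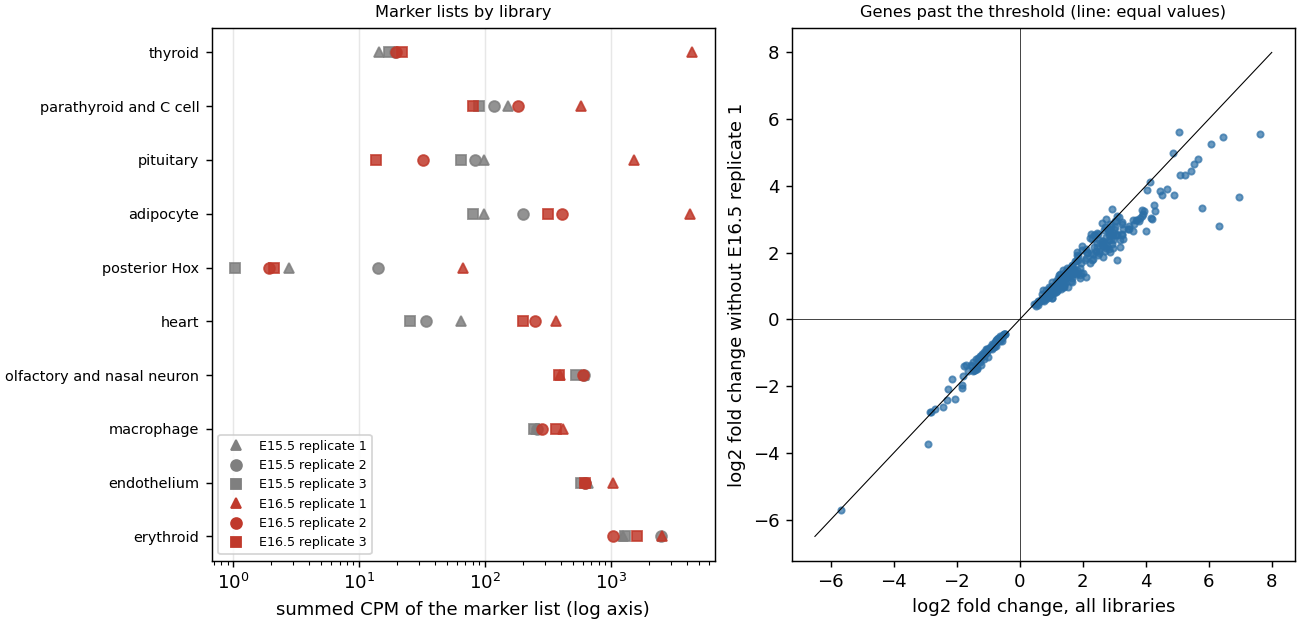
Left, summed CPM of each marker list (log axis) in each library, grey for E15.5 and red for E16.5, with a triangle, circle and square for replicates 1, 2 and 3; thyroid markers reach 4398 CPM in E16.5 replicate 1 and 14.3 to 21.8 CPM elsewhere. Right, log2 fold change of the 312 genes past the threshold with all libraries (x axis) and without E16.5 replicate 1 (y axis); all 312 keep their sign.

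Osteoclast genes were higher at E16.5. Of 17 tested, 7 rose and 0 fell, and 16 were higher in every E16.5 library than in every E15.5 library. The median log2 fold change of the 17 was 1.97, and it was 2.31 without E16.5 replicate 1, where 0 passed and 11 had an unadjusted p under 0.05. Without E15.5 replicates 1, 2 and 3 in turn 4, 0 and 1 passed, and DESeq2 called 11. In each of the 7 the highest level was in E16.5 replicate 3 and the lowest in E15.5 replicate 1. In bulk samples, more cells of a type and more RNA per cell cannot be told apart.

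Among the risers were 3 enzymes of bone resorption. Acp5 (chromosome 9, 22126727 to 22135711, GRCm38), the tartrate-resistant acid phosphatase, was at 12.4, 39.4 and 75.3 CPM at E15.5 and at 359.5, 262 and 472 CPM at E16.5. Ctsk (chromosome 3, 95499256 to 95509362), a cathepsin that degrades bone collagen, was at 96.6, 122 and 185 CPM and then at 569, 505 and 917 CPM. Mmp9 (chromosome 2, 164940780 to 164955850), a gelatinase, was at 35.9, 94.2 and 138 CPM and then at 450.3, 396 and 672 CPM. For all 3 enzymes every E16.5 library lay above every E15.5 library. Their log2 fold changes were 3.10 (SE 0.58, adjusted p 0.0316), 2.30 (SE 0.40, adjusted p 0.0277) and 2.50 (SE 0.41, adjusted p 0.023). At E14.5 Acp5 averaged 3.59 ± 1.37 CPM and at P0 784 ± 372 CPM (SD, n = 3).

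Receptors, a fusion gene and a transporter of the lineage made up the other 4 risers. Oscar, an activating receptor of osteoclasts, was at 0.607, 1.09 and 1.98 CPM and then at 7.12, 6.86 and 9.93 CPM (log2 fold change 2.70, adjusted p 0.0224). Ocstamp, which acts in the fusion of precursors, was at 0.674, 1.85 and 2.78 CPM and then at 7.59, 7.8 and 13.5 CPM (log2 fold change 2.44, adjusted p 0.035). Itgb3 (chromosome 11, 104608000 to 104670476), the beta subunit of the vitronectin receptor, was at 20.8, 21.9 and 22.5 CPM and then at 50.1, 53.3 and 68.1 CPM (log2 fold change 1.39, adjusted p 0.0224). The groups did not overlap for any of these. The antiporter gene Slc9b2 went from 2.54 to 8.18 CPM at E15.5 to 22.7 to 40.8 CPM at E16.5 (log2 fold change 2.40, adjusted p 0.0246).

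The other 10 members did not pass. Dcstamp, the fusion receptor, Atp6v0d2, a subunit of the proton pump, and Siglec15, a surface lectin, had log2 fold changes of 2.35, 2.29 and 1.97 with adjusted p of 0.0802, 0.0744 and 0.104. The acid-secretion genes Tcirg1, Clcn7 and Ostm1 differed by 0.50, 0.28 and 0.37, with adjusted p of 0.225, 0.227 and 0.314. Nfatc1, the master transcription factor of osteoclast differentiation, differed by 0.50 (adjusted p 0.411). Car2, carbonic anhydrase, overlapped between the stages.

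Of 12 macrophage genes tested 1 rose, 4 were higher and 0 lower at an unadjusted p under 0.05, 3 were higher in every E16.5 library, and the median log2 fold change was 0.35, or 0.08 without E16.5 replicate 1. Cx3cr1, the fractalkine receptor, was at 22.7, 22 and 17.8 CPM and then at 21.9, 17.7 and 19.6 CPM, and Adgre1 and Mrc1 overlapped too. No difference between the macrophage and osteoclast lists was tested. The riser was Cd68, a lysosomal glycoprotein that osteoclasts also make, at 8.83, 12.2 and 16.4 CPM and then at 33.2, 28 and 45.5 CPM (log2 fold change 1.51, adjusted p 0.034). Csf1r, the receptor of a cytokine that both lineages need, was at 56, 61.5 and 59.1 CPM and then at 103, 84.7 and 123 CPM (adjusted p 0.06). Outside the lists, myeloid genes also rose, chosen after their values were seen: Tyrobp, a signalling adaptor, by 1.23 on the log2 scale (adjusted p 0.0379), and Cd84, Slamf9, Itgax and Cd72, surface receptors, by 1.15, 1.67, 1.79 and 1.99 (adjusted p 0.0492, 0.0347, 0.0353 and 0.0333).

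Ratios within a library remove the total from the comparison. Per kilobase of transcript, Acp5 relative to Csf1r was 0.531, 1.54 and 3.07 at E15.5 and 8.42, 7.43 and 9.25 at E16.5, a ratio of the means of 4.88. Ctsk relative to Csf1r was 5.57, 6.43 and 10.1 and then 17.9, 19.3 and 24.1. Neither ratio overlapped between the stages. Both pairs, like the other ratios given below, were chosen after the values were seen and carry no test.

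Of the 5 cytokine and cytokine receptor genes of osteoclast formation, 0 passed in edgeR's test, and 3 had an unadjusted p under 0.05. DESeq2 called 2 higher. Tnfsf11, which encodes RANKL, was at 1.94, 2.15 and 3.3 CPM and then at 2.44, 3.35 and 6.38 CPM (adjusted p 0.251). Tnfrsf11b, its decoy receptor, was at 4.26, 6.15 and 6.49 CPM and then at 7.29, 6.08 and 12 CPM (adjusted p 0.293). Both overlapped between the stages. Csf1, the macrophage growth factor, was at 40.2 to 41.3 CPM and then at 47.2 to 63 CPM (log2 fold change 0.38, adjusted p 0.197).

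**Figure D2:**
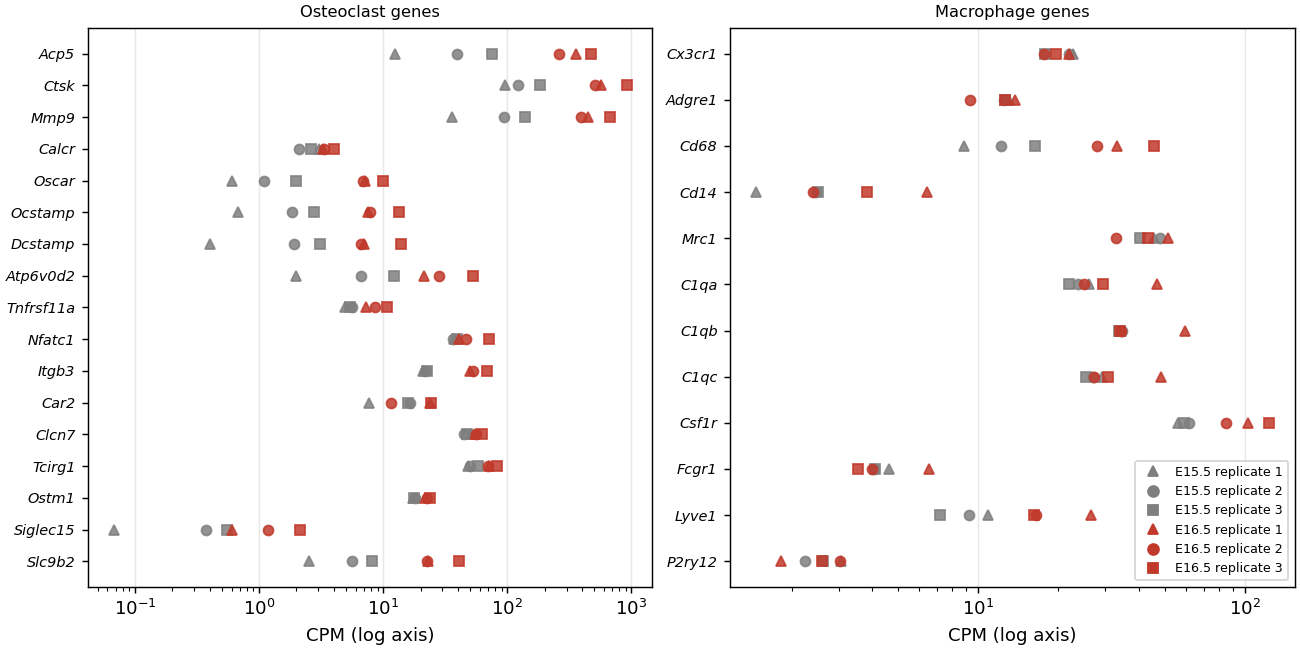
CPM (log axis) of the 17 osteoclast genes (left) and 12 macrophage genes (right) in each library, grey for E15.5 and red for E16.5, with a triangle, circle and square for replicates 1, 2 and 3. Red points lie above all grey points for 16 of 17 osteoclast genes, whereas Cx3cr1, Adgre1 and Mrc1 overlap.

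Start-site sequence is shown for Ctsk and Oscar because both rose and held matches to motifs of PU.1 or MITF. These factors are known regulators of osteoclast genes. The windows of Acp5 and Slc9b2, which also rose, held 0 matches and are not shown. The windows run from 250 bases before to 50 bases after the first listed start, from RefSeq on GRCm38.p6. Ctsk is at chr3:95498960-95499259 on the plus strand and Oscar at chr7:3616108-3616407 on the minus strand. Capitals mark matches on either strand to GAGGAA, the PU.1 core, and to CACGTG or CATGTG, the E-boxes bound by MITF.
Ctsk: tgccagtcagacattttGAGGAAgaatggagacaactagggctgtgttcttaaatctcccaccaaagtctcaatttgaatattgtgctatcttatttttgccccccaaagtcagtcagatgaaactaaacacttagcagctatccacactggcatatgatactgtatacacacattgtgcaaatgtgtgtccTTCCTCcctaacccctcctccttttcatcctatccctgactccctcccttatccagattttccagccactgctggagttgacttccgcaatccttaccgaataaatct
Oscar: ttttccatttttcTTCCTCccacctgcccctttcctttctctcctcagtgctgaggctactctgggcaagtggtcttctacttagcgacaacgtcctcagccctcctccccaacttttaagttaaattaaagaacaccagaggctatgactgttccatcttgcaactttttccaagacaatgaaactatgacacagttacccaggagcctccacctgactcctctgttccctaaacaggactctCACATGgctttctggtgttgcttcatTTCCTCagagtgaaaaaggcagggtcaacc
Of the 17 genes, 9 had a window in the table. The PU.1 core was in 2 of these (22.2%), against 28.3% of all 27025 windows, and an E-box in 2 (22.2%), against 20.5%. The shares in the list were near those of all windows.

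Genes of bone matrix were abundant at both stages. Of 20 osteoblast and osteocyte genes tested, 0 passed in edgeR's test, 7 were higher at an unadjusted p under 0.05 and the median log2 fold change was 0.18. DESeq2 called 4 higher. Col1a1, the main collagen of bone, was at 14671, 12323 and 13783 CPM and then at 14146, 12565 and 17062 CPM. Col1a2 and Sparc, also abundant matrix genes, differed by 0.23 and 0.63 on the log2 scale (adjusted p 0.715 and 0.224). Runx2 and Sp7, transcription factors of the osteoblast lineage, overlapped between the stages.

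The larger differences in this list included those of Spp1, Mepe and Bglap2, none past the threshold in edgeR's test. Which cells the differences came from was not tested. Spp1, osteopontin, was at 185, 308 and 446 CPM and then at 1338, 750.4 and 1250 CPM (log2 fold change 1.83, adjusted p 0.0692). Mepe, an osteocyte matrix protein, was at 0.573, 0.656 and 1.03 CPM and then at 2.24, 1.85 and 5.26 CPM (log2 fold change 2.05, adjusted p 0.0641). Bglap2, an osteocalcin gene, was at 1.45, 2.59 and 4.18 CPM and then at 11.8, 5.2 and 11.2 CPM (log2 fold change 1.78, adjusted p 0.0967). All 3 were higher in every E16.5 library. Reads of Bglap2 and Bglap, which are near-identical copies, may have been split between them.

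Of 18 cartilage genes 1 rose and 0 fell, with a median log2 fold change of -0.35. The riser was Col10a1 (chromosome 10, 34389981 to 34397085), the collagen of hypertrophic cartilage. It was at 1.85, 3.58 and 4.29 CPM at E15.5 and at 41.1, 8.41 and 19.6 CPM at E16.5 (log2 fold change 2.83, SE 0.62, adjusted p 0.0483), highest in E16.5 replicate 1. Without that library its log2 fold change was 2.11. Col2a1, the main cartilage collagen, was at 451, 1380 and 559.8 CPM and then at 1186, 264 and 338 CPM. Its high libraries were E15.5 replicate 2 and E16.5 replicate 1, and the stages overlapped, as they did for Col11a1 and Col11a2. Per kilobase, Col10a1 relative to Col2a1 was 0.0121, 0.00765 and 0.0227 and then 0.102, 0.0941 and 0.171, with no overlap.

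Genes of the mature contractile apparatus had the largest median difference among the gene lists. All 24 genes of the fast and mature sarcomere list were higher in every E16.5 library and had an unadjusted p under 0.05, and 8 rose at the adjusted threshold. The median log2 fold change was 3.41, and 2.63 without E16.5 replicate 1, where 1 of the 24 passed and 22 had an unadjusted p under 0.05. DESeq2 called all 24. E16.5 replicate 1 was the highest library for every gene in the list, with a summed level of 46080 CPM against 17595 and 13313 CPM in the other E16.5 libraries and 1493 to 3886 CPM at E15.5.

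Smtnl1 (chromosome 2, 84811176 to 84822652), a smoothelin-like protein of muscle, was at 0.674, 1.03 and 0.752 CPM and then at 100.2, 32.6 and 31.5 CPM (log2 fold change 6.06, SE 0.59, adjusted p 0.0037). Its call was lost in 1 of the 6 fits from which a library was removed. Myh2, a fast myosin heavy chain, was at 3.25, 2.22 and 2.24 CPM and then at 96.4, 24.9 and 18 CPM (log2 fold change 4.18, adjusted p 0.0284). Tnnt3, fast troponin T, was at 240.2, 159 and 93.1 CPM and then at 3930, 1520 and 1102 CPM (log2 fold change 3.73, adjusted p 0.0499). For all 3 the lowest E16.5 library was far above the highest E15.5 library.

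The other 5 risers were Xirp2, an actin-binding repeat protein, Myoz1, of the Z-disc, Casq1, the calcium store of the sarcoplasmic reticulum, and the enzymes Pygm and Eno3, of glycogen breakdown and glycolysis. Their log2 fold changes were 4.68, 4.25, 3.82, 3.24 and 3.18, with adjusted p of 0.0284, 0.0347, 0.0353, 0.045 and 0.0344. Without E16.5 replicate 1 the log2 fold changes of Smtnl1, Myh2 and Tnnt3 were 5.27, 3.04 and 2.98, and those of these 5 genes 3.90, 3.43, 3.05, 2.53 and 2.37. The most abundant members were not among the risers. Acta1, skeletal actin, was at 1166, 730.3 and 429 CPM and then at 13526, 5026 and 3860 CPM (adjusted p 0.0684), and Mylpf and Ckm had adjusted p of 0.0663 and 0.0852. Myh4, the fastest myosin, was at 782 CPM in E16.5 replicate 1 against 3.93 and 2.94 CPM in the other E16.5 libraries, and its log2 fold change was 9.67 with and 3.39 without that library (adjusted p 0.0597 with it).

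Of 12 embryonic and slow sarcomere genes 1 rose, with a median of 1.56. This was Myh8 (chromosome 11, 67277124 to 67308634), the perinatal myosin, at 829, 488 and 264 CPM and then at 11985, 4981 and 3435 CPM (log2 fold change 3.69, SE 0.82, adjusted p 0.0492). Myh3 (chromosome 11, 67078300 to 67102291), the embryonic myosin of the same cluster, was at 1948, 869 and 721 CPM and then at 3021, 3769 and 2221 CPM (log2 fold change 1.35, adjusted p 0.217). Without E16.5 replicate 1 the log2 fold change of Myh8 was 2.98. Per kilobase, Myh8 relative to Myh3 was 0.219, 0.289 and 0.189 at E15.5 and 2.04, 0.68 and 0.796 at E16.5. The stages did not overlap in this ratio, which was highest in E16.5 replicate 1. Tnni2 relative to Tnni1, the fast and slow troponin I genes, was 0.97, 2 and 1.03 and then 17.5, 4.51 and 5.13.

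Regulators of muscle formation did not pass. Of 15 tested, 0 passed in either direction in edgeR's test, 3 were higher and 2 lower at an unadjusted p under 0.05, and the median was 0.45. Myog, which drives terminal differentiation, was at 155, 53.9 and 66 CPM and then at 109, 167 and 100 CPM. Myod1, Mef2c and the fusion gene Mymx also overlapped. Myf6 and Mymk were higher in every E16.5 library, with log2 fold changes of 2.38 and 1.49 (adjusted p 0.129 and 0.179). Sln, a muscle regulator of the calcium pump that stood in the heart marker list, was at 57.9, 25.1 and 16.5 CPM and then at 352, 244 and 196 CPM (log2 fold change 2.99, adjusted p 0.0483). Of that list's 6 tested genes 1 rose, 3 were higher at an unadjusted p under 0.05 and 2 were higher in every E16.5 library. Their median log2 fold change was 1.81, or 0.69 without E16.5 replicate 1. In the same list, Nppa was at 0.151 CPM or less in all 6 libraries and Myh6 at 8.82 CPM or less.

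**Figure D3:**
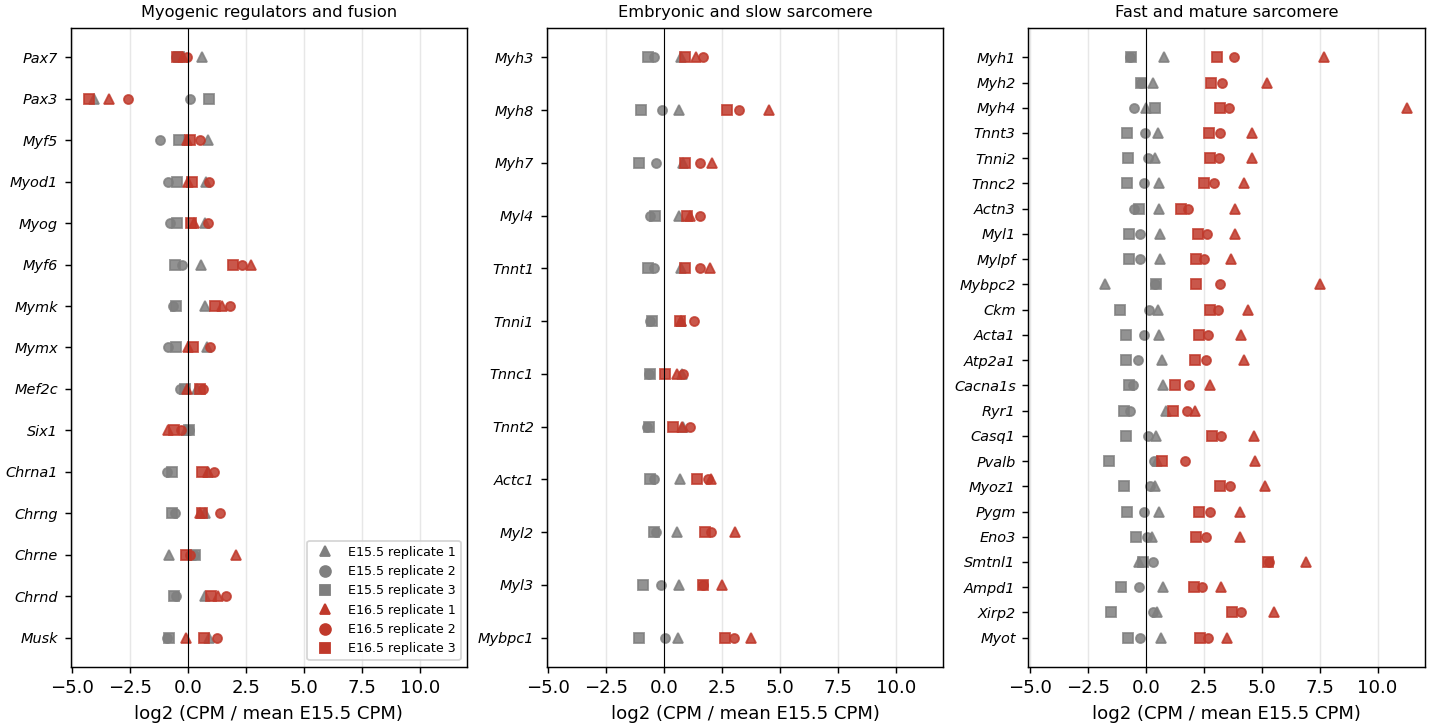
Log2 of CPM over the mean E15.5 CPM of the same gene, for myogenic regulators (left), embryonic and slow sarcomere genes (middle) and fast and mature sarcomere genes (right), grey for E15.5 and red for E16.5, with a triangle, circle and square for replicates 1, 2 and 3. In the right panel every red point lies above the grey points of its gene, and the triangle of E16.5 replicate 1 is the highest in each row.

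Members of the programme that makes multiciliated cells were lower at E16.5, and none of the 22 listed genes of cilium structure that were tested passed the threshold. Of 15 fate and centriole genes 2 fell and 0 rose, 10 had an unadjusted p under 0.05 in the lower direction, and the median log2 fold change was -1.18, or -0.94 without E16.5 replicate 1, where 0 passed and 8 had an unadjusted p under 0.05. Without E15.5 replicate 1 the fall of 1 gene was called, and with any other library left out 0 falls were. DESeq2 called 8. Among the 22 structural genes 0 passed in either direction, 2 were higher and 0 lower at an unadjusted p under 0.05, and the median was 0.32. Without E16.5 replicate 1, 0 were higher and 2 lower at an unadjusted p under 0.05, with a median of 0.12, and the same counts were found without E15.5 replicate 1. The difference between the lists was not tested.

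The pair that fell, Mcidas and Ccno, are neighbours with Cdc20b on chromosome 13 (112993845 to 113000394, 112987802 to 112990777 and 113035111 to 113091195). Mcidas, a coregulator that commits cells to the multiciliated fate, was at 11, 22.9 and 22.6 CPM and then at 2.52, 2.57 and 3.01 CPM (log2 fold change -2.80, SE 0.57, adjusted p 0.0413). Ccno, a cyclin-like protein of centriole amplification, was at 15.9, 36.4 and 38.1 CPM and then at 6.8, 6.5 and 5.06 CPM (log2 fold change -2.30, SE 0.44, adjusted p 0.0333). Cdc20b, which acts in the release of new centrioles, was at 10.2, 18.3 and 17.9 CPM and then at 2.44, 4.2 and 3.03 CPM (log2 fold change -2.26, adjusted p 0.0765). Deup1 (chromosome 9, 15559864 to 15627933), which builds the deuterosome where centrioles form, was at 26.9, 58.4 and 64.4 CPM and then at 13.1, 9.62 and 9.91 CPM (log2 fold change -2.20, adjusted p 0.0848). In all 4, E15.5 replicate 1 was the lowest E15.5 library and still above every E16.5 library. At E14.5 Mcidas averaged 1.33 ± 0.715 CPM and at P0 2.79 ± 1.39 CPM (SD, n = 3).

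Upstream and shared factors did not pass. Gmnc, which acts above Mcidas, was at 1.4, 5.56 and 5.33 CPM and then at 0.863, 1.27 and 0.978 CPM (adjusted p 0.121). Foxj1, the factor that drives cilium genes and stays on in finished cells, was at 81.5, 181 and 197 CPM and then at 122, 91.6 and 82.8 CPM, with overlap (adjusted p 0.344). E2f4, a partner of Mcidas, was at 54.2 to 57.7 CPM and then at 48.4 to 56.1 CPM. Ccp110, a centriole cap protein, differed by -1.18 on the log2 scale (adjusted p 0.152).

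The olfactory and nasal neuron markers summed to 607 CPM in E15.5 replicate 1, and to 616 and 531 CPM in the other E15.5 libraries. Single genes of the nasal side were low in that library, with the olfactory gene Omp at 0.64 CPM against 30.3 and 29.9 CPM. Levels were therefore also set against Foxj1 in the same library. Per kilobase, Mcidas relative to Foxj1 was 0.148, 0.14 and 0.127 at E15.5 and 0.0228, 0.031 and 0.0401 at E16.5, a 4.42-fold lower mean. Deup1 relative to Foxj1 was 0.261, 0.256 and 0.259 and then 0.085, 0.0833 and 0.0947, a 2.95-fold lower mean. In both ratios the 3 E15.5 libraries lay close together, which did not hold for Tmem212 and Sntn below.

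Most listed structural genes went the other way on that scale. Tmem212, a transmembrane protein of ciliated cells, was at 3.71, 16.5 and 15.5 CPM and then at 34.8, 25.6 and 21.2 CPM (log2 fold change 1.20, adjusted p 0.209). Relative to Foxj1 per kilobase it was 0.167, 0.334 and 0.288 and then 1.05, 1.03 and 0.938. Dnah9, an outer dynein arm heavy chain, was 0.021, 0.0259 and 0.017 and then 0.0626, 0.0791 and 0.0729. Sntn, a protein of the cilium tip, was 0.0367, 0.0801 and 0.0817 and then 0.265, 0.289 and 0.262. None of the 3 ratios overlapped between the stages.

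Relative to Foxj1, 17 of the 22 structural genes were higher in every E16.5 library and 5 overlapped. Of the other 14 fate genes 8 were lower, 5 overlapped and Rfx2, a factor of cilium gene promoters, was higher. Over all tested genes 16.4% were higher and 0.808% lower by the same measure. Foxj1 itself had a lower mean at E16.5, which enters every such ratio. The abundant structural genes Cfap43, Spef1 and Ccdc40 had log2 fold changes in CPM of 0.61, 0.30 and 0.20, with adjusted p of 0.157, 0.384 and 0.804. Dnah8, an axonemal dynein outside the list, was at 13.6, 21.2 and 18.3 CPM and then at 7.27, 7.49 and 7.48 CPM. It thus fell (log2 fold change -1.26, adjusted p 0.0284), unlike the listed genes.

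**Figure D4:**
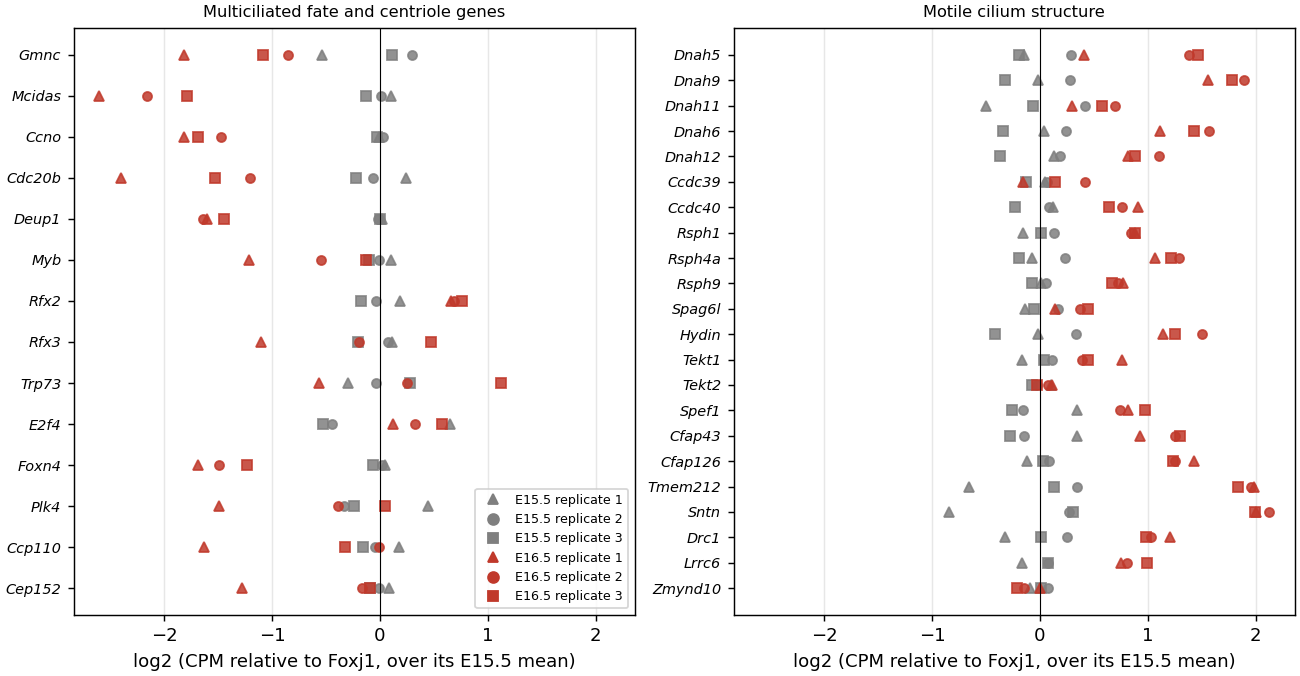
Log2 of CPM relative to Foxj1 in the same library, over its E15.5 mean, for fate and centriole genes (left) and motile cilium genes (right), grey for E15.5 and red for E16.5, with a triangle, circle and square for replicates 1, 2 and 3. Mcidas lies at -2.60 to -1.79 at E16.5 and Sntn at 1.99 to 2.13.

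The windows around the starts of Mcidas, Ccno and Deup1 are shown because all 3 genes were lower relative to Foxj1 in every E16.5 library. They were also chosen for holding a match to an element of RFX factors, which act at cilium genes. The window of Cdc20b, lower by the same measure, held 0 matches and is not shown. The windows are from RefSeq on GRCm38.p6, with the same length and rule as above. Mcidas is at chr13:112993618-112993917 and Ccno at chr13:112987552-112987851, both on the plus strand, and Deup1 at chr9:15627797-15628096 on the minus strand. Capitals mark GTTGCC, a part of the X-box bound by RFX factors, on either strand.
Mcidas: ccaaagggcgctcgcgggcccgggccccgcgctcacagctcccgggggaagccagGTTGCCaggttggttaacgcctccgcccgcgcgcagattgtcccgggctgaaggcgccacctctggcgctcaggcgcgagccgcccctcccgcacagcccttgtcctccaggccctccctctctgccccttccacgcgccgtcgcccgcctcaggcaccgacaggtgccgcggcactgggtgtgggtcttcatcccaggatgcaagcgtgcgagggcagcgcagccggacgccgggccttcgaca
Ccno: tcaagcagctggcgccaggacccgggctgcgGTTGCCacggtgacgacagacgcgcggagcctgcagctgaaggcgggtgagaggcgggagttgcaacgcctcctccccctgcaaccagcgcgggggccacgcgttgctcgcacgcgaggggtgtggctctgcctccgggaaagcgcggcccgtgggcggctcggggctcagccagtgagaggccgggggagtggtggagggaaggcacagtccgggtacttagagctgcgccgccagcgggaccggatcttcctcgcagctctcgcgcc
Deup1: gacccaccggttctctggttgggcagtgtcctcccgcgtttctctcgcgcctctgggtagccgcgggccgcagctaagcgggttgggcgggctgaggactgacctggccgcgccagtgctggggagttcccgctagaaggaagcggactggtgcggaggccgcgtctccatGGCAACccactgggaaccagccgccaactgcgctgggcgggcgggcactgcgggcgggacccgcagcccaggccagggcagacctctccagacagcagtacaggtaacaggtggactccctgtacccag
Each window shown held 1 match, for which it was chosen. This element was in 6 of the 13 fate genes with a window (46.2%) and in 7 of the 19 structural genes with one (36.8%), against 12.7% of all windows. Genes that fell and genes that did not thus both held it, and a match describes letters only.

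Secretory genes of glands and nasal epithelium were higher at E16.5. Of 22 tested 7 rose and 0 fell, 15 were higher in every E16.5 library, and the median log2 fold change was 2.95, or 2.37 without E16.5 replicate 1. That library was the highest for Muc5b, Agr2, Spdef, Ltf, Reg3g and Dcpp1, and the lowest E16.5 library for Muc5ac. It also held the airway genes Scgb3a1 and Scgb3a2 at 476 and 542 CPM, against 0.498 to 1.52 CPM in the other E16.5 libraries. The part of that library's stray transcripts in the list's rise was not tested beyond leaving the library out, where 0 genes passed and 16 had an unadjusted p under 0.05.

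Muc5b (chromosome 7, 141839070 to 141873084), a gel-forming mucin, was at 2.22, 8.4 and 8.56 CPM and then at 598, 183 and 180.3 CPM (log2 fold change 5.65, SE 0.78, adjusted p 0.0224). Muc5ac, the other airway gel-forming mucin, was at 1.11, 1.16 and 1.39 CPM and then at 3.58, 8.66 and 15.8 CPM (log2 fold change 2.93, adjusted p 0.0284). Neither overlapped between the stages. Spdef, a transcription factor of mucous cells, was at 0.623, 1.4 and 1.46 CPM and then at 10.7, 4.84 and 4.52 CPM (log2 fold change 2.52, adjusted p 0.0284). Agr2, which folds mucins, was at 3, 8.79 and 8.83 CPM and then at 133, 44 and 46.5 CPM (log2 fold change 3.43, adjusted p 0.0224).

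Antimicrobial products followed. Ltf, lactoferrin, was at 8.96, 11.8 and 11.8 CPM and then at 139.7, 65.3 and 49.9 CPM (log2 fold change 2.97, adjusted p 0.0316). Ltf is also a neutrophil gene, and the neutrophil genes S100a8 and S100a9 overlapped between the stages. Reg3g, a lectin that kills bacteria, was at 5.04, 37 and 38.2 CPM and then at 531, 165 and 188 CPM (log2 fold change 3.46, adjusted p 0.035). Bpifa1, an abundant product of nasal epithelium, was at 13.6, 319 and 371 CPM and then at 378, 91.2 and 55.2 CPM, with overlap. Dcpp1, a salivary protein, was at 0, 0.0745 and 0.101 CPM and then at 31, 5.56 and 0.538 CPM (log2 fold change 7.63, adjusted p 0.0476), and its near-identical relatives Dcpp2 and Dcpp3 make its reads uncertain. Without E16.5 replicate 1 the log2 fold changes of Muc5b, Spdef, Agr2, Ltf, Reg3g and Dcpp1 were 4.81, 1.99, 2.70, 2.39, 2.71 and 5.56, and that of Muc5ac was 3.32.

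Keratinocyte genes mostly overlapped between the stages. Of 22 genes of stratified epithelium 0 passed in edgeR's test and 1 was higher at an unadjusted p under 0.05, with a median of 0.23. Krt5, the basal keratin, was at 153, 363 and 724 CPM and then at 177, 599 and 1216 CPM, and Krt15 and Krt13 overlapped likewise. Within each stage Krt5 differed more between libraries than the stage means did. Of 20 cornified envelope genes tested 1 passed, Lce3a, which was at 0, 0.0149 and 0 CPM and then at 0.0216, 0.36 and 0.367 CPM. Its E15.5 libraries and E16.5 replicate 1 lay below the detection floor, so no fold is given. Krtdap, Asprv1 and Tgm1, the most abundant of that list, overlapped between the stages.

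**Figure D5:**
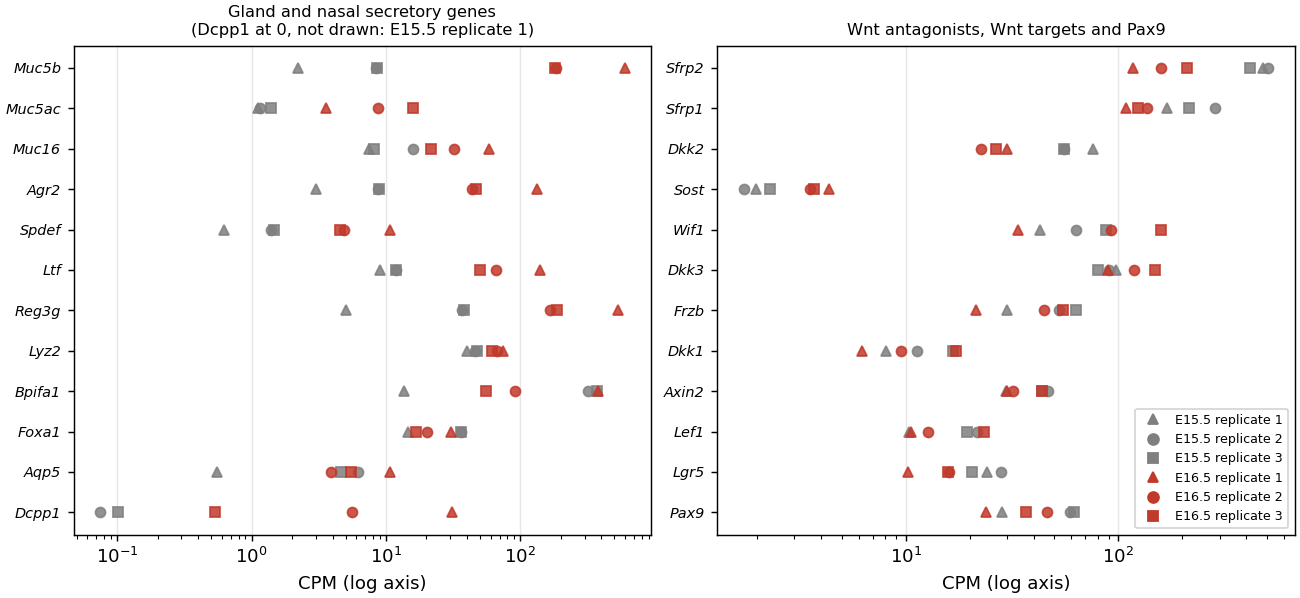
CPM (log axis) of gland and nasal secretory genes (left) and of Wnt antagonists, Wnt targets and Pax9 (right) in each library, grey for E15.5 and red for E16.5, with a triangle, circle and square for replicates 1, 2 and 3; the value of Dcpp1 at 0 is not drawn. Muc5b rises from at most 8.56 CPM to at least 180.3 CPM, and Sfrp2 drops from at least 417 CPM to at most 211 CPM.

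Wnt signalling and Pax9 are named in the aims of the study, which include an antagonist of the pathway, sclerostin. Wnt proteins are secreted ligands, and secreted antagonists bind either the ligands or their co-receptors. Of 13 antagonists 2 fell and 0 rose. The count was 0 with upper-quartile normalization and in 5 of the 6 fits without 1 library, and 3 were lower at an unadjusted p under 0.05 in each of these. DESeq2 called 3 lower and 1 higher. Sfrp2 (chromosome 3, 83766321 to 83774316), which binds ligands, was at 481, 507 and 417 CPM and then at 117, 158 and 211 CPM (log2 fold change -1.53, SE 0.34, adjusted p 0.0492). Dkk2 (chromosome 3, 132085292 to 132180304), which binds the co-receptors, was at 75.6, 55.3 and 55.6 CPM and then at 30.1, 22.7 and 26.5 CPM (log2 fold change -1.23, SE 0.27, adjusted p 0.0483). The stages did not overlap for either, and E16.5 replicate 1 was the lowest library for Sfrp2 but the highest E16.5 library for Dkk2.

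Other antagonists differed in both directions. Sfrp1 was at 169, 284 and 214 CPM and then at 108, 136 and 123 CPM (log2 fold change -0.86, adjusted p 0.104). Sost (chromosome 11, 101962458 to 101967015), which encodes sclerostin, was at 1.97, 1.73 and 2.31 CPM and then at 4.34, 3.54 and 3.72 CPM (log2 fold change 0.95, SE 0.35, adjusted p 0.146). It was the one antagonist that was higher in every E16.5 library. Dkk3 and Wif1 overlapped between the stages. The median of the 13 was 0.36.

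Ligands and target genes did not pass. Of 17 ligands 0 passed in edgeR's test, with 1 higher at an unadjusted p under 0.05, and Wnt5a, Wnt4 and Wnt7b, the most abundant, overlapped. Of 13 feedback targets 0 passed, with 1 lower at an unadjusted p under 0.05 and a median of -0.15. Without E16.5 replicate 1 the median was 0.03 and 0 were lower at an unadjusted p under 0.05. The lower gene with all libraries was Lgr5, the R-spondin receptor, at 24, 28.2 and 20.6 CPM and then at 10.2, 15.9 and 15.8 CPM (adjusted p 0.151). Axin2, the standard feedback target, was at 29.5, 46.6 and 43.8 CPM and then at 30.1, 32 and 43.7 CPM, and Apcdd1, Tcf7 and Nkd1 overlapped as well.

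Of 24 palate patterning genes 0 passed in edgeR's test, 2 were lower at an unadjusted p under 0.05 and the median was -0.21. Pax9 (chromosome 12, 56691767 to 56712822), a transcription factor needed for palate closure, was at 28.5, 59.4 and 61.7 CPM and then at 23.8, 46.4 and 36.8 CPM (log2 fold change -0.48, SE 0.39, adjusted p 0.49). The pair was Tbx22, a factor of palatal bone, at 1.75, 3.92 and 5.29 CPM and then at 0.302, 1.08 and 1.17 CPM (adjusted p 0.127), and Mn1, at 86.5, 65.7 and 54.7 CPM and then at 41.8, 44 and 47.6 CPM (adjusted p 0.109). Shh, the ligand of the palatal ridges, spread from 0.777 to 69 CPM among the E16.5 libraries, and its receptor Ptch1 from 53.5 to 285 CPM. E16.5 replicate 1 was the lowest of its stage for both.

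Cell cycle genes were lower without passing the threshold. Of 30 tested 0 passed in edgeR's test, 20 were lower and 0 higher at an unadjusted p under 0.05, and 23 were lower in every E16.5 library. The median log2 fold change was -0.55. Top2a, the topoisomerase of dividing cells, was at 276, 298 and 326 CPM and then at 129, 178 and 257 CPM (adjusted p 0.163), and the replication helicase gene Mcm6 at 161, 153 and 172 CPM and then at 112, 107 and 141 CPM (adjusted p 0.167). Mki67 was at 310, 306 and 305 CPM and then at 213, 256 and 332 CPM, with overlap. E16.5 replicate 1 had the lowest sum, where the summed level was 1507 CPM against 1802 and 2405 CPM in the other E16.5 libraries and 2609 to 2906 CPM at E15.5. Without that library 4 of the 30 had an unadjusted p under 0.05. Without E16.5 replicate 3, 2 passed and 27 had an unadjusted p under 0.05, and DESeq2 called 1. A fit with the replicate block called 8. The CHR element TTTGAA, a known element of cell cycle promoters, was in 11 of 24 windows of this list (45.8%), against 18.1% of all windows, on either strand.

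The remaining large falls were in genes of several kinds. Ccdc18, Hyls1, a centriole protein, and Dnah8, an axonemal dynein, had log2 fold changes of -1.65, -1.46 and -1.26. Hyls1 was at 17.1, 25.8 and 27.7 CPM and then at 8.8, 8.19 and 8.63 CPM (adjusted p 0.0333). Among transcription factors, Zfhx4 was at 94, 89.4 and 75.9 CPM and then at 21.7, 29.9 and 46.9 CPM (log2 fold change -1.40, adjusted p 0.0344), and Foxp2 at 47.6, 33.3 and 22.4 CPM and then at 16.1, 14.7 and 16 CPM (log2 fold change -1.14, adjusted p 0.0353). Stra6, the retinol transporter, was at 16.8, 29.2 and 24.4 CPM and then at 10.5, 8.77 and 8.44 CPM (log2 fold change -1.35, adjusted p 0.0482). The protease Adamts6 and the membrane protein Tmem26 fell by 1.32 and 1.43 on the log2 scale (adjusted p 0.0284 and 0.0334).

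Large rises outside the lists included muscle genes too. Ckmt2, mitochondrial creatine kinase, was at 4.31, 5.81 and 2.23 CPM and then at 257, 57.1 and 53.1 CPM (log2 fold change 4.89, adjusted p 0.0224). Mettl21e, a muscle methyltransferase, was at 31.4 CPM in E16.5 replicate 1 and at 10.5 CPM in both other E16.5 libraries, against 0.289 to 0.745 CPM at E15.5 (log2 fold change 5.08). Ip6k3, an inositol phosphate kinase of muscle, was at 36, 8.74 and 6.26 CPM against 0.723 to 1.03 CPM (log2 fold change 4.20). Without E16.5 replicate 1 the log2 fold changes of Ckmt2, Mettl21e and Ip6k3 were 3.72, 4.33 and 3.00. Rpl3l, the muscle form of a ribosomal protein, was at 34.6, 1.22 and 1.32 CPM at E16.5, and its log2 fold change of 6.97 was 3.67 without E16.5 replicate 1. Plin4, a lipid droplet protein of fat and muscle, was at 106, 7.58 and 7.34 CPM at E16.5 against 0.354 to 1.39 CPM (log2 fold change 5.79, and 3.34 without that library). Adipocyte markers summed to 4244 CPM in E16.5 replicate 1 against 406 and 316 CPM in the other E16.5 libraries and 80.3 to 201 CPM at E15.5, and 0 of 8 tested passed, though all 8 had an unadjusted p under 0.05. Aoc1, diamine oxidase, was at 18.4, 6.67 and 5.23 CPM against 0.135 to 0.715 CPM (log2 fold change 4.52, and 3.73 without that library, adjusted p 0.0284 with it).

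Among 11 erythroid genes 1 fell. Hba-x (chromosome 11, 32276400 to 32278116), the embryonic alpha-like globin, was at 2.88, 3.58 and 1.45 CPM and then at 0.324, 0.442 and 0.342 CPM (log2 fold change -2.84, SE 0.53, adjusted p 0.0333). Hbb-y, the embryonic beta-like globin, was at 9.15, 8.12 and 4.37 CPM and then at 1.68, 2.71 and 0.391 CPM (log2 fold change -2.18, adjusted p 0.0804). The adult globins Hba-a1, Hbb-bs and Hbb-bt overlapped between the stages. Per kilobase, Hba-x relative to Hba-a1 had a 6.23-fold lower mean at E16.5.

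Higd1b and Tshr also rose among the marker lists. Higd1b, a pericyte gene, was at 0.371, 0.417 and 0.318 CPM and then at 3.24, 1.52 and 1.57 CPM (log2 fold change 2.51, adjusted p 0.0224). Of 10 pericyte and smooth muscle genes it alone passed, 7 were higher in every E16.5 library, and the median was 0.79, or 0.45 without E16.5 replicate 1. Pdgfrb and Rgs5 overlapped between the stages. Tshr, the thyrotropin receptor, was at 1.92, 1.36 and 1.34 CPM and then at 4.96, 3.65 and 3.35 CPM (log2 fold change 1.37, adjusted p 0.0308). Its rise was 1.17 without E16.5 replicate 1, whereas Tg differed by 0.44 in that fit. Of 14 soft matrix collagens 0 passed in edgeR's test and 0 had an unadjusted p under 0.05.

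Sex-linked transcripts differed between the pools. Y-linked Ddx3y was at 16.1 and 46.2 CPM in E15.5 replicates 2 and 3 and at 0.152 CPM or less in the other 4 libraries. For Y-linked genes, stage and the sex of the pooled embryos cannot be told apart. Of the 228 rises 6 were on the X chromosome, as were 0 of the 84 falls. These counts were not set against the share of all tested genes on that chromosome, so no excess or lack can be read from them.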

How the data were processed

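Bulk RNA sequencing of 15 palate libraries gave 1 table of counts for 54232 genes. Per the file headers, the authors made the counts with featureCounts 2.0.1, counting paired reads on the reverse strand against GENCODE M18; the submitters' processing notes also name cutadapt 3.4, FastQC 0.11.9, Bowtie2, HISAT2 2.2.1, SAMtools 1.12 and the build mm10. Symbols came from GENCODE M21, in which 97.52% of matched genes had an identical position. Stages were taken from the labels. Genes passing filterByExpr (minimum count 10; 22151 genes) were modelled by stage in edgeR 4.0.16 under R 4.3.3, using all 15 libraries, and the contrast of both stages used its quasi-likelihood test, with Benjamini-Hochberg adjustment at 0.05. Spread was estimated for each gene from all 15 libraries together (common biological variation over genes 0.332, as a coefficient). The standard error is the log2 fold change over the root of its F statistic. Floors cover counting error only. Procedures were tested on simulated data.

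Named are the 12 largest rises and 12 largest falls among protein-coding genes past the threshold with a mean of 10 CPM or more in 1 of the stages and no overlap between them, list members past the threshold, the 3 most abundant members of each list, and Sost and Pax9. Other named genes were chosen after their values were seen. The members and lists were chosen with earlier results of these data known. Alternatives were DESeq2 1.42.0, other normalizations and filters, the 6 libraries alone, a replicate block and leaving out each library. Promoter windows matched by symbol.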

Additional observations from a re-analysis of the deposited data

How the results depend on the processing

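The numbers of genes past the threshold depended strongly on the fit. Directions of the named or listed genes past it did not, and these had been chosen for a difference between the stages. Most list medians also kept their sign without E16.5 replicate 1. Those of the Wnt feedback targets (-0.15, then 0.03) and the endothelium markers (0.25, then -0.07), among others, did not. All 48 named or listed genes past the threshold kept their sign in every alternative that gave a value, and 0 of them passed in all 6 fits that left out 1 library. In those fits 0 to 377 genes rose and 0 to 127 fell. Without E15.5 replicates 1, 2 and 3 in turn, 41, 0 and 2 genes rose and 37, 0 and 0 fell, and without E16.5 replicates 1, 2 and 3, 1, 57 and 377 rose and 0, 8 and 127 fell. Leaving out replicate 1 of both stages, an alternative chosen after seeing the data, gave 1 and 0. With only the 6 libraries 0 rose and 0 fell, with fewer libraries to estimate the spread (2509 and 1925 at an unadjusted p under 0.05). With no filter on low counts 39 genes fell, among 37998 tested. DESeq2 called 1363 higher and 731 lower, with 308 of the 312 genes among them. The cause of these shifts was not tested.

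Correlations of same-numbered deviations were -0.044, -0.188 and 0.203, against -0.148 to 0.21 for differently numbered libraries. These few values cannot settle whether the replicate numbers pair the libraries. A fit with the replicate block called 256 higher and 166 lower. Depth limits genes near 0.0434 to 0.083 CPM, the level of 3 counts.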

Other observations

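Some groups of genes with related symbols belong to no list above. They were chosen after their values were seen, so they carry no test as groups. Of 340 tested genes named Zfp plus a number, which encode zinc finger proteins, 12 fell and 0 rose, 112 were lower and 1 higher at an unadjusted p under 0.05, and the median log2 fold change was -0.31, or -0.23 without E16.5 replicate 1. They were 14.3% of the genes that fell and 1.53% of the genes tested. Of the 12, 7 lay on chromosome 17, among them Zfp942 at 10.9, 16 and 17.7 CPM at E15.5 and at 6.24, 7.55 and 7.56 CPM at E16.5 (log2 fold change -1.06, adjusted p 0.0316). Reads of these near relatives may have been split between copies.

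Of 43 tested genes with the symbols of interferon-induced genes 9 rose and 0 fell, with a median of 0.75, or 0.44 without E16.5 replicate 1. Igtp, an interferon-inducible GTPase, was at 10.4, 7.12 and 6.39 CPM and then at 26, 32 and 21.9 CPM (log2 fold change 1.74, adjusted p 0.023), with no overlap. Isg15, a ubiquitin-like protein, was at 0.775, 1.21 and 1.17 CPM and then at 5.52, 3.93 and 2.35 CPM (log2 fold change 1.90, adjusted p 0.0403). Of 12 Ly6 genes 3 rose and 0 fell, 5 were higher at an unadjusted p under 0.05, and the median was 0.63, or 0.31 without E16.5 replicate 1. The largest rise was that of Ly6a, at 1.52, 3.01 and 3.08 CPM and then at 24.4, 12.4 and 17.2 CPM (log2 fold change 2.83, adjusted p 0.0224). Of 17 Asb genes, ubiquitin ligase adaptors, 4 rose and 0 fell, 9 were higher and 2 lower at an unadjusted p under 0.05, and the median was 0.87, or 0.61 without E16.5 replicate 1. The largest rise was that of Asb12, at 0.169, 0.387 and 0.116 CPM and then at 19.5, 5.01 and 5.11 CPM (log2 fold change 5.45, adjusted p 0.0224).

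Single genes outside these groups included Adam8, a membrane protease, at 6.94, 11.5 and 10.7 CPM and then at 66.2, 61.2 and 40.8 CPM (log2 fold change 2.52, adjusted p 0.0224). Slc37a2, a sugar phosphate transporter, was at 6.42, 12.7 and 20.7 CPM and then at 42.7, 52.4 and 91.5 CPM (log2 fold change 2.23, adjusted p 0.0284). Chad, chondroadherin of cartilage and bone matrix, was at 4.43, 9.03 and 5.52 CPM and then at 57.8, 35.3 and 41.6 CPM (log2 fold change 2.83, adjusted p 0.0486). Igf2bp1, an oncofetal RNA-binding protein, was at 54.3, 40 and 41.8 CPM and then at 19.5, 25.1 and 26.9 CPM (log2 fold change -0.93, adjusted p 0.0242). Dact1, an intracellular modulator of Wnt signalling, was at 83.7, 71.3 and 58.6 CPM and then at 35.7, 42.9 and 48.6 CPM (log2 fold change -0.75, adjusted p 0.0353).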
